A study of Mus musculus with 2 samples.

Results

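Large barcodes with few leukocyte and few collagen transcripts made up 427 of the 12514 cell barcodes sequenced from MTC-Q1 tumours, and most of them carried Cdkn2a, a cell cycle inhibitor gene, and high levels of mesenchymal genes, with epithelial genes nearly absent. A barcode marks the contents of a droplet, and transcripts were counted by unique molecular identifiers (UMIs). A barcode was a member when it had at least 20000 UMIs, at most 10% mitochondrial UMIs, under 100 CPM of Ptprc (CPM are UMIs scaled to a total of 1000000), under 0.5% of UMIs from Col1a1, Col1a2 and Col3a1 together, and under 0.2% from C1qa, C1qb and C1qc together. Ptprc encodes CD45, the surface protein of leukocytes, the collagen genes mark fibroblasts, and the C1q genes mark macrophages. Those genes and the UMI total therefore chose the members, and their levels are given only as descriptions. There were 31 members among 5320 barcodes of library 1 and 396 among 7194 of library 2, which is 0.583% (95% interval 0.396 to 0.826, exact Clopper-Pearson) and 5.50% (4.99 to 6.06).

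The study measured cells that had passed a CD45 bead selection, which acts on the surface protein, while the rule counts Ptprc transcripts. Members also low in other leukocyte genes go against the label of the sorted cells. Those that carry leukocyte genes, described below, need not. MTC-Q1 is a mouse oral cancer line, and cells labelled wt or mir-21 KO were injected under the skin of C57BL/6 mice. Tumours grew for 2 weeks, every mouse then received cisplatin at 5 mg/kg, and cells were isolated 72 h later, so both groups were treated and an untreated group is not part of the comparison. Each group has 1 library, the labels name no sex, age or number of mice, and no source ties library 1 or library 2 to a group. Differences between the libraries are therefore given without a genotype, no test could be made, and every interval covers counting error within a library only.

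Library 1 held 57488236 UMIs and library 2 held 149734240. Barcodes of at least 20000 UMIs with at most 10% mitochondrial UMIs numbered 511 and 2425, and members were 6.07% and 16.3% of them. Members were larger than the other large barcodes: their median total was 98684 UMIs in library 1 and 60481.5 in library 2, against 26512.5 and 26507 in the large barcodes with Ptprc at or above the limit (428 and 1880, called Ptprc-positive below). The large barcodes that met every condition but the collagen limit (49 and 111, called collagen-rich) had medians of 39616 and 38846 UMIs. Of 8 barcode sequences found in both libraries, 1 was a member. Just inside the limits, 35 members had 0.4 to 0.5% collagen UMIs and a median of 755 CPM of Cdkn2a, and just outside, 21 barcodes with 0.5 to 0.6% collagen had a median of 901 CPM. The 12 members with 75 to 100 CPM of Ptprc had a median Cdkn2a level of 0, and the 17 barcodes just above that limit had 255 CPM. The 15 members under 22000 UMIs had a median Cdkn2a level of 46.2 CPM, and the 6 barcodes with 18000 to 20000 UMIs had 345 CPM. The C1q and mitochondrial limits had few barcodes near them: 5 members and 6 barcodes outside lay within 0.05 percentage points of the C1q limit, and 1 and 1 within 1 point of the mitochondrial limit.

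Cdkn2a encodes a pair of tumour suppressor proteins: p16Ink4a holds back the kinases that open the cell cycle, and p19Arf restrains Mdm2 and so protects p53. Dividing normal cells hold it at low levels, and lines that have lost the downstream brakes often express it freely. Mouse cancer lines grown in culture may also lose keratins and take on mesenchymal genes such as Vim, which encodes an intermediate filament. Xist, transcribed from the inactive X chromosome of female cells, and Y-linked genes of male cells can tell an injected line from its host when their sexes differ.

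Cdkn2a split the members into barcodes with and without it, with few between. Its level was at least 100 CPM in 26 of 31 members of library 1 and 366 of 396 of library 2, and 2 of the 427 lay between 50 and 150 CPM. In the Ptprc-positive barcodes the same level was reached by 6 of 428 (1.40%) and 88 of 1880 (4.68%), and in the collagen-rich barcodes by 39 of 49 and 81 of 111. A list of general leukocyte genes other than Ptprc (Cd52, Laptm5, Coro1a, Cd53, Tyrobp and others) divided the members further. The 339 members (79.4%, 75.2 to 83.1) with Cdkn2a at 100 CPM or more and under 300 CPM of the leukocyte list are called core members: 24 in library 1 and 315 in library 2. Another 53 members (12.4%), 2 and 51, had both Cdkn2a and at least 300 CPM of the leukocyte list, and 35 members (8.20%), 5 and 30, had Cdkn2a under 100 CPM. These limits were chosen after the values were seen, so the Cdkn2a and leukocyte levels of the core are fixed by choice. With limits of 50 to 200 CPM for Cdkn2a and 200 to 500 CPM for the leukocyte list, the core held 309 to 352 members. Large barcodes of the collagen-rich kind were split in the same way at 100 CPM of Cdkn2a, into 39 and 81 with it and 10 and 30 without it.

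**Figure D1:**
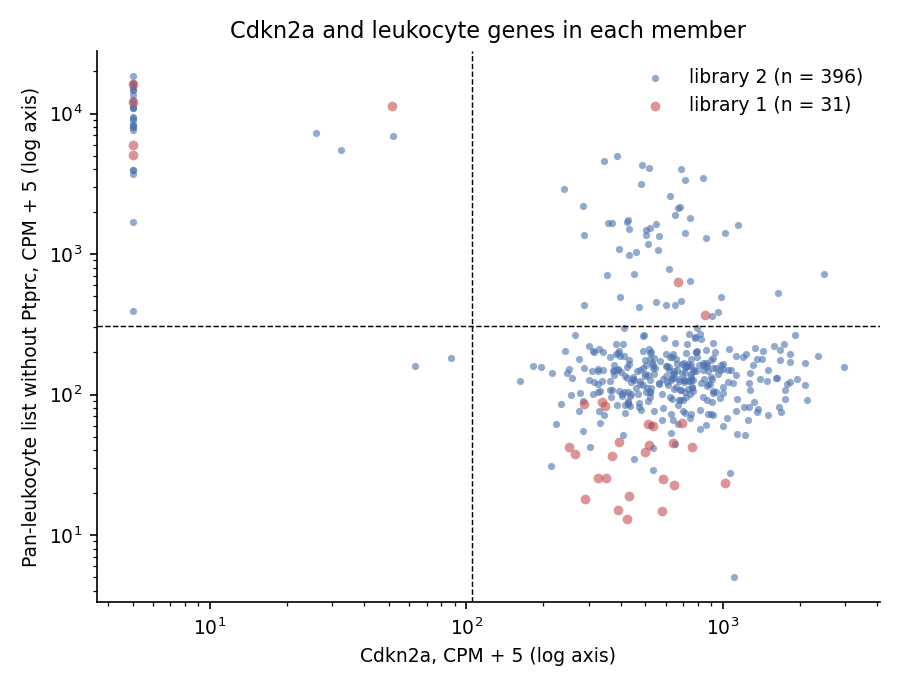
Level of Cdkn2a (x axis, CPM + 5, log axis) against the summed level of the leukocyte list without Ptprc (y axis, CPM + 5, log axis) in each of the 31 members of library 1 (red) and the 396 of library 2 (blue); dashed lines mark 100 and 300 CPM. The 339 core members lie at the lower right, the 53 with leukocyte genes at the upper right, and most of the 35 without Cdkn2a at the upper left.

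Within the core, Cdkn2a ranged from 247 to 1017 CPM with a median of 421 in library 1, and from 157 to 2976 with a median of 648 in library 2. Its neighbour Cdkn2b, which encodes the related inhibitor p15Ink4b and played no part in the choice of barcodes, was at 71.9 and 55.2 CPM in the core (library 1 and library 2, as in every pair of values below). In the Ptprc-positive barcodes Cdkn2b was at 2.22 and 5.18 CPM, and in collagen-rich barcodes without Cdkn2a at 18.1 and 1.86 CPM. The collagen-rich barcodes with Cdkn2a had 111 and 68.4 CPM of Cdkn2b, so both groups chosen by Cdkn2a carried its neighbour as well.

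The sex-linked genes separated the members of library 1 along the same line. In its 24 core members Xist had 3 UMIs in all (1.15 CPM), while 4 Y-linked genes (Ddx3y, Eif2s3y, Kdm5d and Uty) had 159 UMIs (60.8 CPM, 51.8 to 71.1). A Y-linked UMI was found in 18 of the 24, with 1 to 20 UMIs each. The other 6 had total counts of 78114 to 150428 UMIs. The 2 members of library 1 with both Cdkn2a and leukocyte genes had 7 UMIs of Xist and 6 of the Y-linked genes together. In the 5 members without Cdkn2a the picture was the opposite: Xist stood at 441 CPM with at least 3 UMIs in 5 of 5, and no Y-linked UMI was found, which allows up to 19.7 CPM (3 counts). Collagen-rich barcodes of library 1 divided in the same manner. Those with Cdkn2a had 103 CPM of the Y-linked genes, found in 35 of 39, and 7.25 CPM of Xist, and the 10 without Cdkn2a had 594 CPM of Xist, found in 10 of 10, and no Y-linked UMI. The Ptprc-positive barcodes of library 1 had 849 CPM of Xist and 2.53 CPM of the Y-linked genes. After each barcode was thinned to 20000 UMIs, a Y-linked UMI remained in 15 of the 24 core members and Xist in 0, against Xist in 423 of 428 Ptprc-positive barcodes.

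**Figure D2:**
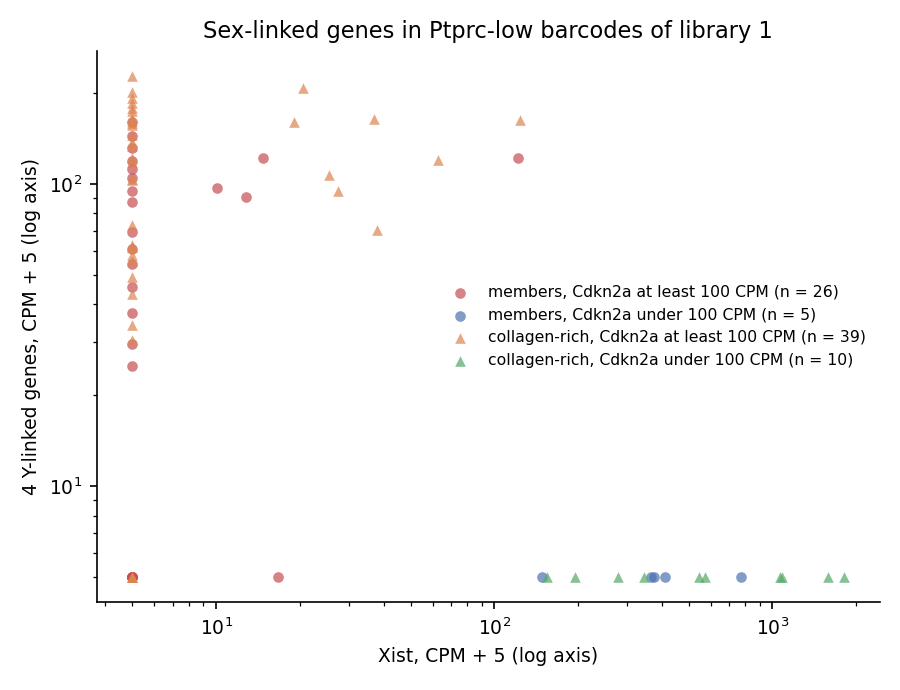
Xist (x axis, CPM + 5, log axis) against the sum of 4 Y-linked genes (y axis, CPM + 5, log axis) in each Ptprc-low large barcode of library 1, with members as circles and collagen-rich barcodes as triangles. Barcodes with at least 100 CPM of Cdkn2a (26 members, 39 collagen-rich) lie mostly at the upper left, with Y-linked UMIs and little Xist, and those with less Cdkn2a (5 and 10) lie at the lower right, with Xist and no Y-linked UMI.

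Library 2 showed no such split. Its members had 3 UMIs of Xist and 0 of the Y-linked genes, and its Ptprc-positive barcodes had 14 and 0, so neither the members nor the leukocytes there could be placed by these genes. The split seen in library 1 could therefore not be checked in library 2. The cores did differ in the Y-linked genes, at 60.8 CPM in library 1 and 0 in library 2. No UMI in the 315 core members of library 2 allows up to 0.125 CPM (3 counts). The cause of this difference was not tested.

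Epithelial genes were nearly absent from the core. The list of 12 general epithelial genes summed to 1.91 and 4.30 CPM, and Krt8, Krt19, Cldn4 and Esrp1 had no UMI in either library. Epcam had no UMI in library 1 and was at 0.0418 CPM in library 2, and Cdh1, which encodes E-cadherin, was at 0 and 0.334 CPM. The keratins of basal oral epithelium were no higher: Krt5 and Krt15 had no UMI, and Krt14 was at 0 and 2.00 CPM, with UMIs in 5 of 315 core members of library 2. The basal keratinocyte list did sum to 114 and 87.6 CPM, but 96.4 and 72.5 CPM of this came from Dst, a cytoskeletal linker gene that the collagen-rich barcodes without Cdkn2a also held, at 193 and 132 CPM.

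Mesenchymal genes were high. A list of 15 genes of mesenchymal transition summed to 28657 and 45904 CPM in the core, against 12544 and 14308 CPM in collagen-rich barcodes without Cdkn2a and 3847 and 8646 CPM in Ptprc-positive barcodes. Most of this came from S100a6, a calcium-binding protein gene, at 19474 and 36109 CPM, followed by Vim at 4268 and 4512 CPM. S100a4, a gene of the same family that motile cells express, was at 3422 and 4051 CPM in the core and at 75.3 and 233 CPM in collagen-rich barcodes without Cdkn2a, which is a log2 ratio of 5.50 (4.94 to 6.13) and 4.12 (3.94 to 4.31). It did not separate the core from collagen-rich barcodes with Cdkn2a, where it was at 3529 and 4291 CPM. The transcription factor genes Twist1 (101 and 164 CPM) and Prrx1 (109 and 77.0 CPM) were detected in 24 of 24 core members of library 1, and in 313 and 293 of the 315 of library 2. In the Ptprc-positive barcodes Twist1 was at 2.99 and 12.7 CPM and Prrx1 at 1.84 and 8.19 CPM.

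Fibroblast genes lay between the levels of the other large barcodes. The fibroblast list summed to 1361 and 1399 CPM in the core, with 224 of 339 core members at 1000 CPM or more, and against Ptprc-positive barcodes 5 of 7 measured list genes were higher and 1 (Thy1) lower, with a median log2 ratio of 4.25 and 2.94. Over all genes of that comparison 11.3% were higher and 21.3% lower. Compared with collagen-rich barcodes without Cdkn2a, 10 of 10 measured genes of the fibroblast list were lower in both libraries. The median log2 ratio was -4.60 and -5.18, where the median of all genes was 0.34 and 0.29. Over all genes of this comparison 11.1% were lower. The collagen limit separates the core from those barcodes in the same direction, so the gap was in part set by the choice. Dcn, a small proteoglycan gene, was at 729 and 722 CPM in the core and at 6486 and 4401 CPM in those barcodes. Lum, a related proteoglycan gene, had no UMI in the core of library 1 and was at 0.167 CPM in library 2, against 772 and 673 CPM. Genes among the 10 with the lowest ratios in this comparison had the same gap, which was fixed by that choice. Serping1, a complement inhibitor gene, was at 0 and 0.125 CPM in the core and at 2031 and 1734 CPM in collagen-rich barcodes without Cdkn2a, Meg3, an imprinted non-coding gene, was at 0 and 0.0835 against 1019 and 1208 CPM, and Pi16 was at 0.383 and 0.292 against 934 and 1115 CPM. In the collagen-rich barcodes with Cdkn2a, by contrast, Pi16 was at 1.04 and 2.79 CPM and Meg3 at 0 and 15.4 CPM. Pi16 and Meg3 were thus also low in the collagen-rich barcodes with Cdkn2a, a group not used to pick them.

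Some contractile genes were present and others were not. Acta2, which encodes smooth muscle actin, was at 331 and 583 CPM in the core, but it was uneven, from 0 to 16070 CPM in library 2 with a median of 53.9. Tagln, an actin-binding protein gene of contractile cells, was at 49.7 and 216 CPM, with UMIs in 11 of 24 and 152 of 315 core members. Of the 11 genes of the pericyte and smooth muscle list 3 were measured against Ptprc-positive barcodes (Acta2, Tagln and Pdgfrb). All 3 were higher in the core, as were 11.3% of all genes in that comparison. Other genes of the list were at or near 0: Rgs5, a pericyte gene, had no UMI, Myh11, the smooth muscle myosin gene, was at 0.383 and 0 CPM, Cnn1 at 0 and 0.334 CPM and Des at 0.383 and 0.376 CPM. Endothelial genes summed to 49.4 and 32.9 CPM, Schwann cell and neural crest genes to 2.30 and 2.21 CPM, melanocyte genes to 0.765 and 0.125 CPM, and skeletal muscle genes to 3.06 and 4.55 CPM. The leukocyte list, low by choice, was at 34.1 and 123 CPM, against 8807 and 12618 CPM in Ptprc-positive barcodes. The macrophage list was at 51.7 and 202 CPM, against 8247 and 15986 CPM. None of its genes was used for the choice, but the limits on Ptprc, C1q and leukocyte genes also keep macrophages out. Its low level therefore follows from the choice as well.

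**Figure D3:**
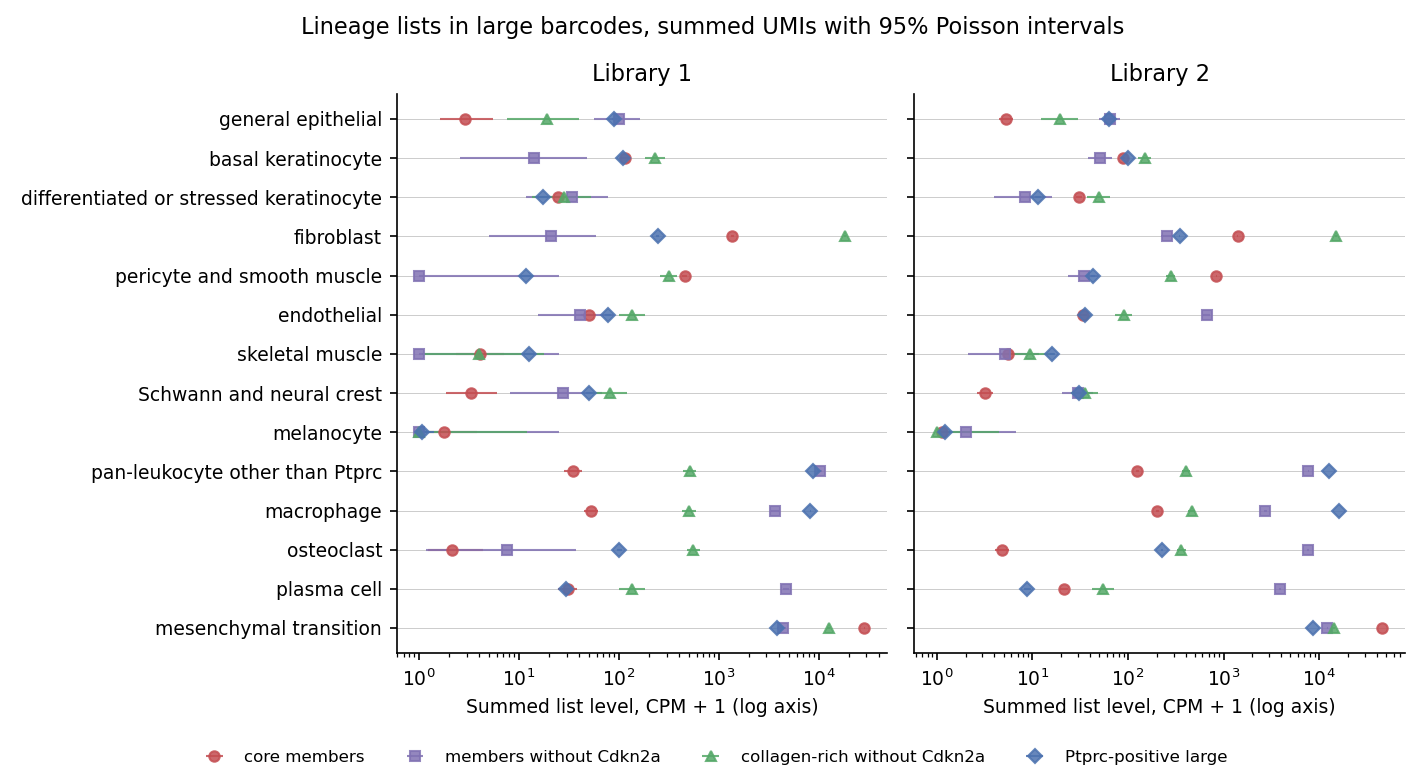
Summed level of 14 gene lists (x axis, CPM + 1, log axis) in library 1 (left) and library 2 (right) for core members (red circles), members without Cdkn2a (purple squares), collagen-rich barcodes without Cdkn2a (green triangles) and Ptprc-positive large barcodes (blue diamonds); bars are 95% Poisson intervals. In the core, mesenchymal transition genes reach 28657 and 45904 CPM, and general epithelial genes stay at 1.91 and 4.30 CPM.

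Of the lineages asked about, general epithelial, neural crest and melanocyte markers were at or near 0 in the core, and endothelial markers summed to under 50 CPM. Acta2, Tagln and fibroblast genes were present, the latter far below the collagen-rich barcodes without Cdkn2a and above Ptprc-positive barcodes. The low leukocyte markers were fixed by the choice of barcodes and say nothing of lineage. The gap in fibroblast genes to the collagen-rich barcodes runs in the direction of the collagen limit and was in part set by it. No expression profile of cultured MTC-Q1 cells was analysed here, so the core could not be matched to the line itself and is named only by its genes.

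Apart from Cdkn2a, genes of tumour growth and cell cycle control were raised in the core. Against Ptprc-positive barcodes, 9 of 13 measured list genes were higher and 1 was lower in both libraries. Called here means at least 2-fold, with an interval that excludes 1.5-fold, in both libraries, for genes of at least 100 UMIs. Over all 8855 genes measured in that comparison, 11.3% were called higher in the core and 21.3% lower. Against collagen-rich barcodes without Cdkn2a, 10 of 14 were higher and 2 lower, where 15.6% of 3629 genes were called higher and 11.1% lower. Cdkn2a is counted in both and was fixed by the split. Hmga2, an embryonic chromatin protein gene that many tumours express again, was at 194 and 111 CPM in the core, at 2.91 and 7.18 CPM in Ptprc-positive barcodes and at 3.01 and 0 CPM in collagen-rich barcodes without Cdkn2a. Met, the receptor gene for hepatocyte growth factor, was at 131 and 65.9 CPM in the core and at 3.01 and 0.931 CPM in the latter. Cdk4, a kinase gene that p16Ink4a opposes, was at 261 and 238 CPM in the core, 75.6 and 111 CPM in Ptprc-positive barcodes, and 118 and 108 CPM in collagen-rich barcodes without Cdkn2a. Sox9, a progenitor transcription factor gene, was at 188 and 164 CPM in the core, against 4.21 and 11.9 CPM in Ptprc-positive barcodes.

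By size of ratio, the core was led by Acta2, Rbp2 and Tpm2 against Ptprc-positive barcodes, and by Hist1h2ap, Cdkn2a and Ankrd1 against collagen-rich barcodes without Cdkn2a. The place of Cdkn2a in the latter comparison was fixed by the split. Others of the leading genes are given here with their levels. Tm4sf1, a membrane protein gene, was at 785 and 1003 CPM, against 8.65 and 65.7 CPM in Ptprc-positive barcodes, and Ankrd1, a target gene of the Hippo pathway factor YAP, was at 254 and 180 CPM, against 0.766 and 10.8 CPM. Fabp5, a fatty acid carrier gene, was at 776 and 1106 CPM, against 12.1 and 22.3 CPM in collagen-rich barcodes without Cdkn2a. Phgdh, which encodes the entry enzyme of serine synthesis, was at 505 and 400 CPM, against 21.1 and 10.2 CPM there. All 4 genes lay between those levels in collagen-rich barcodes with Cdkn2a: Tm4sf1 at 428 and 639 CPM, Ankrd1 at 12.96 and 44.7, Fabp5 at 254 and 323, and Phgdh at 212 and 195.

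When all 427 members were compared, before any split, 392 of 5431 genes (7.22%) were called higher and 510 (9.39%) lower than in collagen-rich barcodes, and 977 of 8902 (11%) higher and 1827 (20.5%) lower than in Ptprc-positive barcodes. The first of these divisions depends on the scale: with mitochondrial, ribosomal and Gm42418 UMIs left out of the totals it was 468 higher and 426 lower, and with the median ratio set to 0 it was 469 and 434. The members without Cdkn2a added leukocyte genes to this comparison, such as H2-Ab1 at 265 and 125 CPM over all members, against 19.0 and 13.5 CPM in collagen-rich barcodes.

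Genes of mitosis set the core apart from the collagen-rich barcodes. The list of 18 genes of G2 and M phase summed to 2037 CPM in the core of library 1 and 2151 CPM in that of library 2, and the collagen-rich barcodes with Cdkn2a had 258 and 612 CPM. In that comparison 16 of 16 measured list genes were higher in the core, with a median log2 ratio of 3.32 and 1.89, as were 11 of 14 genes of S phase (2.55 and 1.81). Over all 4902 genes measured, 6.96% were called higher and 7.14% lower, and the median ratio was 0.03 and -0.05. Top2a, which untangles replicated chromosomes, was at 308 and 335 CPM in the core and at 15.03 and 96.1 CPM in collagen-rich barcodes with Cdkn2a, a log2 ratio of 4.36 (3.82 to 4.95) and 1.80 (1.64 to 1.96). Birc5, which encodes survivin, was at 309 and 473 CPM against 22.3 and 76.0 CPM. Pclaf, a partner of the replication clamp, was at 349 and 265 CPM against 9.85 and 23.7 CPM. The rule used no mitotic gene, but its collagen limit separates these groups, and it also used a total UMI count. Median totals were 108420 and 65084 UMIs in the core and 44525 and 41192 in collagen-rich barcodes with Cdkn2a. In the core of library 2, though not of library 1, the G2 and M list fell as collagen rose, as given below. The part of the choice in the gap was not tested.

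Counted by barcode, with each thinned to 20000 UMIs, 16 of 24 core members (66.7%, 44.7 to 84.4) and 151 of 315 (47.9%, 42.3 to 53.6) held at least 20 UMIs of the G2 and M list. Without thinning, 16 and 150 reached the matching level of 1000 CPM. The S phase list reached 20 UMIs in 12 of 24 and 104 of 315 (33.0%) core members, and in 0 of 39 and 3 of 81 collagen-rich barcodes with Cdkn2a. For the G2 and M list, the collagen-rich barcodes with Cdkn2a gave 2 of 39 (5.13%) and 8 of 81 (9.88%) at 20 UMIs. Those without Cdkn2a gave 0 of 10 for that list, which allows up to 30.8% by the exact interval, and 2 of 30. Mitotic genes were not particular to the core among large barcodes: 101 of 428 Ptprc-positive barcodes (23.6%) and 812 of 1880 (43.2%) reached the same level, and all these groups were chosen for large totals. Against Ptprc-positive barcodes 3 of 18 G2 and M genes (Aurka, Cdc20 and Cenpe) were called higher and 0 lower. Over all genes of that comparison 11.3% were called higher and 21.3% lower, so the count of higher genes was near the general share.

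Mitotic genes and collagen lay at opposite ends within the core of library 2. Its 109 core members with under 0.1% collagen UMIs included 82 (75.2%) at 1000 CPM or more of the G2 and M list, and the share was 41 of 76 (53.9%) at 0.1 to 0.2%, 16 of 67 (23.9%) at 0.2 to 0.3% and 11 of 63 (17.5%) at 0.3 to 0.5%. Beyond the collagen limit, 7 of 65 collagen-rich barcodes with Cdkn2a (10.8%) at 0.5 to 1% and 1 of 16 at 1% or more reached it. Total UMIs moved with both, since the median fell from 102993 in the lowest collagen band to 40396 at 0.3 to 0.5%, and their part in the order was not tested. In library 1 no such order was seen among the 24 core members: 4 of 5, 4 of 7, 3 of 7 and 5 of 5 reached 1000 CPM in the same bands, and then 1 of 13 and 1 of 26 collagen-rich barcodes did. Across barcodes the Spearman coefficient of the G2 and M list with the rule's collagen genes was -0.48 over 315 core members of library 2 and 0.11 over 24 of library 1. The coefficient of that list with total UMIs was 0.58 and 0.22. These are descriptions across barcodes that share a library and its totals.

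**Figure D4:**
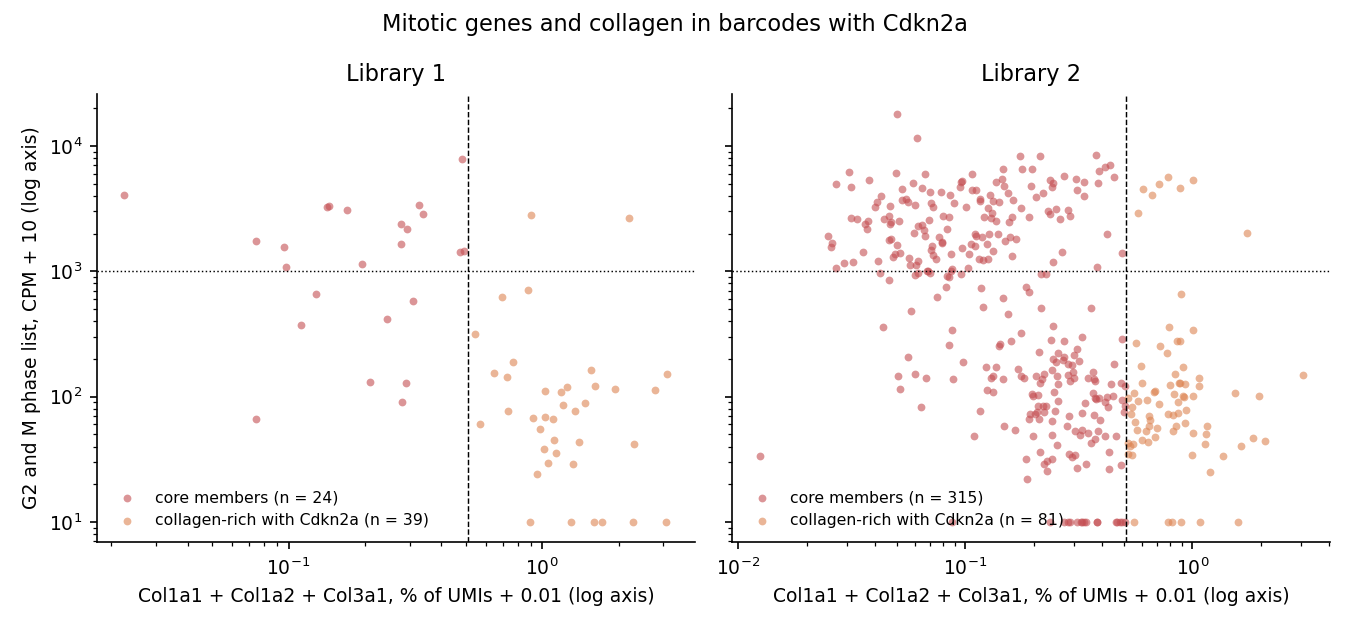
Collagen UMIs of the rule (x axis, percent of UMIs + 0.01, log axis) against the G2 and M list (y axis, CPM + 10, log axis) in each core member (red, n = 24 and 315) and collagen-rich barcode with Cdkn2a (orange, n = 39 and 81); the dashed line is the rule's limit of 0.5% and the dotted line 1000 CPM. In library 2 the core forms an upper group at low collagen and a lower group near the limit, and 8 of 81 orange points lie above the dotted line.

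The promoters of mitotic genes are known for a paired arrangement of a CCAAT box, bound by the factor NF-Y, and a cell cycle homology region (CHR, TTTGAA), bound by complexes that silence these genes in resting cells. The 250 bases before the start of 3 genes of the list are printed because these genes were among the 16 that were higher in the core than in collagen-rich barcodes with Cdkn2a. Sequences are from RefSeq on GRCm38.p6, 5′ to 3′ on the gene's strand, and capitals mark TTTGAA and CCAAT.
Cdc20, chr4:118437344-118437593, minus strand: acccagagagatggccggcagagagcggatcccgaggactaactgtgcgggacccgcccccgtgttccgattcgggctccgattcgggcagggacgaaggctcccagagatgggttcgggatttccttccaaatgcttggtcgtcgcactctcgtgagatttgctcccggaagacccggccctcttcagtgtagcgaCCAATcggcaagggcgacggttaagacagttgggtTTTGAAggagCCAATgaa
Ccnb2, chr9:70421555-70421804, minus strand: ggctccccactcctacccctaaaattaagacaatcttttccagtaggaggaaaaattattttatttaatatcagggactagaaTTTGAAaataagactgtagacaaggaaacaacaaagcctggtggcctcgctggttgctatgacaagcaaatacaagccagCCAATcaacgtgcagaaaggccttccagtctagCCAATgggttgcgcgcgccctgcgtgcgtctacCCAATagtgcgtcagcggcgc
Ccnb1, chr13:100786487-100786736, minus strand: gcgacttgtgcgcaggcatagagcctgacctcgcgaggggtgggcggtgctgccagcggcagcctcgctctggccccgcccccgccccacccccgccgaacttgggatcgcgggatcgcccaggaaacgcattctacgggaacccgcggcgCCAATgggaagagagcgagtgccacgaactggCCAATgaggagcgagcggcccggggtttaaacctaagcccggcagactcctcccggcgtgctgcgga
Cdc20, which activates the complex that ends metaphase, was at 148 and 124 CPM in the core and 18.1 and 31.8 CPM in collagen-rich barcodes with Cdkn2a. Its window holds TTTGAA 18 bases and CCAAT 53 and 8 bases before the start. Ccnb2 and Ccnb1, the cyclins of mitosis, were at 118 and 103 CPM and at 50.9 and 64.7 CPM in the core, against 21.2 and 33.5 CPM and 4.15 and 17.9 CPM. The window of Ccnb2 holds 3 copies of CCAAT, and that of Ccnb1 holds 2 and no TTTGAA. Searched on both strands (TTTGAA or TTCAAA, and CCAAT or ATTGG, which can share an end base), 15 of the 16 list genes with a promoter in the table held CCAAT and 7 held TTTGAA. Of all 32851 promoter windows, 33.8% held CCAAT and 16.0% held TTTGAA. Both were found in 7 of 16 list genes and in 5.55% of all windows. A match is a run of letters and says nothing of binding.

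Matrix genes outside the rule followed the collagens used by it. Of 15 other collagen and matrix genes, 12 were lower in the core than in collagen-rich barcodes with Cdkn2a, with a median log2 ratio of -1.90 and -1.53. All 15 were lower than in collagen-rich barcodes without Cdkn2a. Against Ptprc-positive barcodes 13 of 14 were higher. Over all genes, 7.14% were called lower in the first of these comparisons, 11.1% lower in the second and 11.3% higher in the third. Sparc, a collagen-binding protein gene, was at 1252 and 1192 CPM in the core, 12378 and 13207 CPM in collagen-rich barcodes without Cdkn2a, and 31.1 and 167 CPM in Ptprc-positive barcodes. Aspn and Ogn, which encode small leucine-rich proteoglycans, were among the 10 genes with the lowest ratios in the core against collagen-rich barcodes with Cdkn2a: Aspn was at 15.3 and 103 CPM against 849 and 1178 CPM, and Ogn at 42.5 and 144 CPM against 763 and 1008 CPM. C1qtnf3, a secreted protein gene, had the lowest, at 0.765 and 3.22 CPM against 181 and 140.5 CPM. The collagen limit that separates these groups runs in the same direction.

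Target genes of p53, the factor that cisplatin damage activates in normal cells, were low in the core. Against Ptprc-positive barcodes 10 of 16 measured list genes were lower and 1, Plk2, was higher, with a median log2 ratio of -1.68 and -1.66, where 21.3% of all genes were lower and the median of all genes was -0.03 and -0.15. Cdkn1a, the p53 target that encodes the inhibitor p21, was at 15.7 and 32.6 CPM in the core, with a highest value of 96.3 CPM in library 1 and 575 CPM in library 2. It was at 339 and 549 CPM in Ptprc-positive barcodes, a log2 ratio of -4.43 (-4.91 to -3.99) and -4.07 (-4.18 to -3.97), and at 440 and 329 CPM in collagen-rich barcodes without Cdkn2a. Mdm2, which encodes the ligase that limits p53, was at 14.2 and 16.0 CPM against 57.0 and 58.9 CPM in Ptprc-positive barcodes, and Bax, a cell death gene, was at 84.2 and 98.1 CPM against 196 and 309 CPM. Trp53 itself went the other way, at 230 and 243 CPM in the core and 81.0 and 94.6 CPM in Ptprc-positive barcodes. The collagen-rich barcodes with Cdkn2a had 22.3 and 60.6 CPM of Cdkn1a. Against them 1 of 6 measured p53 targets (Btg2) was called lower in the core, where 7.14% of all genes were called lower. The whole p53 list had a median over barcodes of 461 and 506 CPM in the core and 831 and 805 CPM in those barcodes. Genes of crosslink repair, which removes cisplatin adducts that join the strands, gave no call in either direction in 12 measured genes against Ptprc-positive barcodes. Without an untreated group these levels cannot be set against those before cisplatin.

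Chemokine genes were abundant in the core. Ccl5, which draws T lymphocytes, was at 1776 and 3371 CPM, Cxcl10, an interferon-induced chemokine gene, at 1927 and 2531 CPM, while the monocyte chemokine gene Ccl2 stood at 1474 and 1267 CPM. Their spread between barcodes was wide: Ccl5 ran from 0 to 51355 CPM in library 2 with a median of 846. Against Ptprc-positive barcodes 5 of 10 measured chemokine genes were higher (Ccl2, Ccl5, Cxcl1, Cxcl10 and Cx3cl1) and 3 lower. Over all genes 11.3% were called higher and 21.3% lower there, so the count of lower genes was near the general share. Against collagen-rich barcodes with Cdkn2a 5 of 9 chemokine genes were lower and 0 higher. Lower there were also 9 of 14 genes of the interferon response and 7 of 10 heat shock and immediate early genes. Over all genes of that comparison 6.96% were called higher and 7.14% lower. The core also held 11466 and 11702 CPM of Lgals1, a galectin gene, against 1152 and 2995 CPM in Ptprc-positive barcodes. Cd274, which encodes the checkpoint ligand PD-L1, was at 4.21 and 1.59 CPM, against 37.1 and 29.2 CPM.

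Some genes of growth factors and adhesion were higher in the core than in Ptprc-positive barcodes, where 11.3% of all genes were called higher and 21.3% lower. Of 8 measured growth factor and cytokine genes, 5 were higher and 2 (Areg and Pdgfb) lower, the latter a share near that of all genes. Csf1, the growth factor gene of macrophages, was at 179 and 183 CPM against 8.42 and 21.3 CPM, Hbegf, a ligand gene of the EGF receptor, at 108 and 166 against 8.04 and 16.8 CPM, and Inhba, an activin subunit gene, at 114 and 107 against 3.45 and 9.98 CPM. Areg, another EGF receptor ligand gene, was among the lower ones, at 0 and 0.0418 CPM against 28.6 and 18.4 CPM. Of 9 laminin, integrin and adhesion genes 5 were higher and 0 lower, led by the laminin gene Lamb1 at 120.2 and 90.4 CPM against 2.45 and 9.81 CPM. In the list that holds Ankrd1, genes read out by YAP and TGF-beta, 2 of 7 were higher and 4 lower, so the other members of the list did not share the direction of Ankrd1. Tgfb1 itself was at 15.7 and 5.35 CPM against 187 and 193 CPM. None of 6 growth factor genes was called in either direction between the core and collagen-rich barcodes with Cdkn2a. Over all genes of that comparison 6.96% were called higher and 7.14% lower.

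Genes that respond to tissue dissociation differed within the Cdkn2a-bearing barcodes. The early genes Fos and Egr1 were at 651 and 1006 CPM and at 618 and 620.2 CPM in the core, and collagen-rich barcodes with Cdkn2a had 2864 and 2812 CPM and 1663 and 1856 CPM. The part of cell handling in the differences between these groups was not tested. Hspa1a, an inducible chaperone gene, was at 0.765 and 1.34 CPM in the core against 178 and 104 CPM in Ptprc-positive barcodes, while its partner Dnajb1 had the reverse order, at 329 and 317 CPM against 129 and 91.7 CPM. Of 11 hypoxia and glycolysis genes 1 (Ndrg1) was higher and 1 (Pfkp) lower than in Ptprc-positive barcodes. Over all genes of that comparison 11.3% were called higher and 21.3% lower.

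Between the libraries, few genes of the core differed by the call, although the Y-linked genes together stood at 60.8 and 0 CPM. In the core, 171 of 9047 genes (1.89%) were called higher in library 1 and 127 (1.4%) higher in library 2. All members gave 180 (1.87%) and 155 (1.61%) of 9617 genes, collagen-rich barcodes with Cdkn2a gave 128 (2.37%) and 88 (1.63%) of 5397, and Ptprc-positive barcodes gave 603 (5.34%) and 559 (4.95%) of 11291. The counts rest on different numbers of barcodes and UMIs, and the difference between them was not tested.

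Some genes of peptide loading for MHC class I were higher in the core of library 1. Of 10 list genes, 4 (Psmb8, Psmb9, Tap1 and Tap2) were called higher there, 6 were not called and 0 were lower, where 1.89% of all genes were called higher, with a median log2 ratio of 1.00 where that of all genes was 0.10. Psmb8, a subunit gene of the immunoproteasome, was at 142 and 9.10 CPM, with a UMI in 22 of 24 and in 120 of 315 core members. Psmb9, its partner subunit, was at 124 and 30.1 CPM, and the peptide transporter genes Tap1 and Tap2 were at 67.7 and 24.8 CPM and at 36.7 and 17.4 CPM. The heavy chain gene H2-K1, at 1701 and 907 CPM, and B2m, at 1774 and 935 CPM, were not called. In the leukocytes beside them Psmb8 did not have this order, at 605 and 772 CPM, whereas the collagen-rich barcodes with Cdkn2a had 219 and 33.5 CPM. The interferon response gene Rsad2 was at 11.5 and 4.64 CPM, and Oas1a, outside the list of such genes, was at 56.3 and 5.14 CPM against 61.6 and 42.4 CPM in Ptprc-positive barcodes. Within the core the interferon list rose and fell with the MHC class I list, with a Spearman coefficient across barcodes of 0.52 over 24 and 0.78 over 315.

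Crabp1 and Thbs4 had a gap of the same direction in the collagen-rich barcodes with Cdkn2a. Crabp1, which encodes a retinoic acid binding protein, was at 138 and 2.38 CPM, with UMIs in 15 of 24 and 18 of 315 core members. In the collagen-rich barcodes with Cdkn2a it was at 125 and 2.51 CPM. Thbs4, a thrombospondin gene, was at 6.51 and 154 CPM in the core, 29.5 and 766 CPM in collagen-rich barcodes with Cdkn2a and 81.4 and 738 CPM in those without it, so its order was shared by all 3. Hmga1, a chromatin protein gene, was at 187 and 56.5 CPM in the core and at 13.99 and 7.54 CPM in collagen-rich barcodes with Cdkn2a. Stress genes Ddit3 (96.1 and 30.6 CPM), Atf3 (83.0 and 35.6 CPM) and Trib3 (15.3 and 5.64 CPM) were 3 of the 4 called higher in library 1 among 10 genes of unfolded protein and amino acid stress. Lyz2 (8.42 and 64.9 CPM) and Apoe (28.7 and 110.5 CPM), genes of macrophages, were higher in the core of library 2. Both were also higher in the Ptprc-positive barcodes of library 2, where Lyz2 was at 1839.8 and 5566 CPM and Apoe at 4938 and 7855 CPM, and the part of free leukocyte RNA in the difference was not tested. Of 13 hypoxia genes 3 (Slc2a1, Bnip3 and Ankrd37) were higher in library 2 and 10 were not called, with a median log2 ratio of -0.27. Of S phase 0 of 16 genes and of G2 and M phase 0 of 18 were called between the libraries. Over all genes of the core 1.89% were called higher in library 1 and 1.4% in library 2. A count of 0 in lists of this size is near that share.

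The study varied miR-21, a microRNA that lowers the messages it binds, and its mature form is printed because it is the molecule the knockout targets. The sequence is from RefSeq on GRCm38.p6, at chr11:86584120-86584141 on the minus strand, with the seed (bases 2 to 8) in capitals.
mmu-miR-21a-5p: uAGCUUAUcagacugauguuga
Vmp1, whose gene overlaps the miR-21 precursor, was at 177 and 199 CPM in the core and 71.4 and 81.9 CPM in Ptprc-positive barcodes. The mature miRNA is not seen by this assay. Of 15 measured genes reported as miR-21 targets, 1 (Timp3, a protease inhibitor gene, at 36.7 and 15.9 CPM) was called higher in the core of library 1 and 0 lower, with a median log2 ratio of -0.03 against 0.10 for all genes. Over all genes of the core 1.89% were called higher in library 1 and 1.4% in library 2. Pdcd4, a translation inhibitor gene, was at 27.6 and 50.99 CPM, and Spry1, a brake on receptor signalling, at 21.4 and 34.4 CPM. Against Ptprc-positive barcodes 4 of these 15 targets (Spry1, Timp3, Tpm1 and Skp2) were higher in the core and 3 lower, where 11.3% of all genes were higher and 21.3% lower. Pdcd4 had the reverse order in Ptprc-positive barcodes, at 234 and 102 CPM. Since no source ties a library to a group, none of these values can be read as an effect of the knockout.

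Genes on some chromosomes leaned together between the cores of the libraries. After the median of all genes was set to 0, over genes of at least 500 UMIs, the median log2 ratio of library 1 over library 2 was 0.26 on chromosome 1 and 0.24 on chromosome 19. It was -0.25 on chromosome 13, -0.21 on chromosome 3 and -0.18 on chromosome 4. The quartiles of chromosome 13 ran from -0.43 to -0.06 over 187 genes, and those of chromosome 1 from 0.05 to 0.47 over 241. In the Ptprc-positive barcodes the chromosome medians lay between -0.10 and 0.11. Within a library, the share of UMIs from chromosome 3 was 10.1% and 13.6% in the core against 4.28% and 4.91% in Ptprc-positive barcodes, and S100a6 and S100a4 lie there. No call of copy number was made from these medians.

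**Figure D5:**
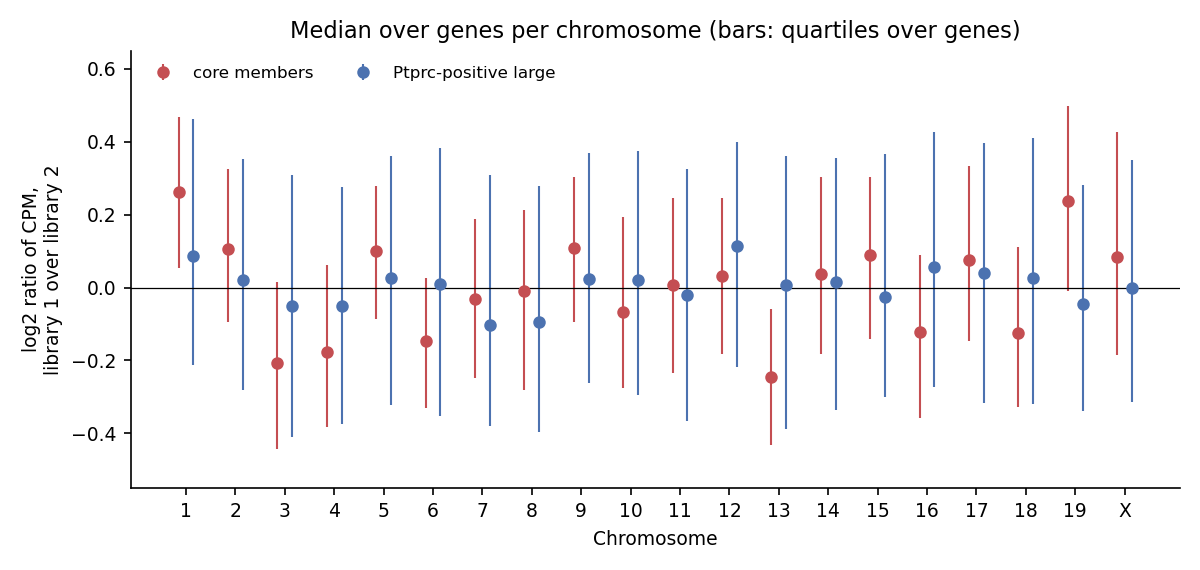
Median over genes of the log2 ratio of CPM, library 1 over library 2, by chromosome (x axis) for core members (red) and Ptprc-positive barcodes (blue), with all genes centred at 0 and bars for the quartiles over genes. Red medians reach 0.26 on chromosome 1 and -0.25 on chromosome 13, and blue medians stay between -0.10 and 0.11.

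Clustering of all members gave 6 clusters, of which 5 held 339 core members. Genes that define a cluster were used to make it and are given as descriptions. Cluster 0 (9 members of library 1 and 66 of library 2) was led by Aspm and Nusap1, genes of the mitotic spindle, and by the hypoxia genes Ero1l, Adm and Bnip3, and its 72 core members had 3982 CPM of the G2 and M list. Cluster 3 (3 and 65) was led by Cdc20, Ankrd1, Plk1 and Tagln, had 2777 CPM of that list, a median of 103236 UMIs and a median of 0.0475% collagen. Cluster 5 (7 and 42) was led by histone genes such as Hist1h2ae and Hist1h1b, which are made during DNA replication, and had 1574 CPM of the S phase list. Cluster 2 (6 and 122), the largest, was led by Aspn, Ogn, Id3, Hmox1 and Thbs4. Its 117 core members had 161 CPM of the G2 and M list, 7622 CPM of the interferon response list, 14844 CPM of the chemokine list and a median of 0.277% collagen over the cluster. Cluster 4 (2 and 40) had 273 CPM of the G2 and M list and was led by Jchain, Slpi, Fabp4 and Ddit3. It held 4 members without Cdkn2a, and no core member of any cluster had more than 141 CPM of the plasma cell list to which Jchain belongs. Most members of these clusters are from library 2, and cluster 2 had the smallest median total, 39739 UMIs.

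Cluster 1 (4 and 61) held 0 core members, 36 of the 53 members with both Cdkn2a and leukocyte genes, and 29 of the 35 without Cdkn2a. Its leading genes mixed the cell types: Acp5 and Ctsk, which osteoclasts use to resorb bone, Gzmg, Gzmd and Gzme of cytotoxic lymphocytes, the MHC class II genes H2-Eb1, H2-Aa and H2-Ab1, and Ccl21a. The 53 members with Cdkn2a and leukocyte genes had a median of 1355 CPM of the leukocyte list, and 22 of them had at least 1000 CPM of the macrophage list. A doublet score placed 12 of the 51 in library 2 (23.5%) among the highest 5% of scores of the library, against 0 of 315 core members and 0 of 30 members without Cdkn2a. In Ptprc-positive barcodes 275 of 1880 (14.6%) were in that range. The split itself put Cdkn2a barcodes with leukocyte genes into the 53 and kept them out of the core. The contrast with the core was therefore in part set by the choice. Whether these members are droplets with more than 1 cell was not tested further.

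The 35 members without Cdkn2a mostly carried leukocyte genes in spite of few Ptprc transcripts, since 31 of them had at least 2000 CPM of the leukocyte list. They were smaller than the core, with median totals of 22258 and 25492 UMIs against 108420 and 65084. Grouping was by at least 1000 CPM of the osteoclast list or of the plasma cell list, and then by the MHC class II list. Levels of genes on the list that picked a group were therefore set by the choice. The osteoclast list picked 8, all in library 2, and was at 26994 CPM in them. Ctsk was at 12142 CPM, Acp5 at 14134 CPM and Ocstamp, needed for the fusion of osteoclasts, at 470 CPM. The C1q genes of these 8 were at 107 CPM. The plasma cell list picked 3 (1 and 2), with Jchain, which joins secreted antibodies, at 43645 CPM and Mzb1 at 1111 CPM. Slpi, outside that list, was at 33261 CPM in these 3. Of the others, 15 (4 and 11) held at least 5000 CPM of the MHC class II list, with H2-Ab1 at 9317 CPM. They were led by Plet1, Mgl2, Ccl22, Clec9a (55.1 CPM) and Xcr1 (88.2 CPM), the last a receptor of dendritic cells. Summed over the 15, the macrophage list was at 3945 CPM, the monocyte list at 1154 CPM and the dendritic cell list at 1019 CPM. They are therefore given no single cell type. The remaining 9, all in library 2, were led by Ccl21a, a chemokine gene of lymphatic vessels, at 2971 CPM, by Egfl7, Plvap and Emcn of blood vessels, and by Gzmg, so they were not of a single type. Groups this small are descriptions of the barcodes counted.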

How the data were processed

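Droplet single-cell RNA-seq counts were deposited by the authors as a pooled matrix of 31053 genes and 12514 barcodes. The values are deposited UMI counts per gene and barcode, whole numbers without normalization, made with Cell Ranger on mm10 per the submitters' processing notes (software version 3.1.0 per the file headers). Barcode suffixes mark 2 libraries. The labels describe 2 groups with 1 library each, and no source ties a suffix to a group, so no test was run and no genotype was assigned.

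Members were found from raw counts by the rule given at the opening. Counts were summed over a population's barcodes within a library and given as CPM. Intervals are at 95%: exact Poisson for CPM, Clopper-Pearson for shares, conditional binomial for ratios. They cover counting error only. A gene was called at 2-fold or more with an interval excluding 1.5-fold, with at least 100 UMIs, and between populations in the same direction in both libraries. A count of 0 allows up to 3 counts.

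The members and gene lists were chosen with earlier results of these data known, and the split by Cdkn2a and leukocyte genes was made after the values were seen. Named genes are list members, or the 15 highest and 10 lowest by the smaller ratio of both libraries among genes of at least 50 CPM and 4-fold in comparisons of populations, the 10 highest and 10 lowest called between libraries, and the 10 leading genes of each cluster. Ribosomal, mitochondrial, antigen receptor variable and rule genes and Gm42418 were left out. Other genes were named after their values were seen. Clusters used scanpy 1.11.5 (2000 variable genes, 30 components, 15 neighbours, Leiden resolution 0.5). Scrublet's automatic threshold marked 0 and 1 barcodes and had not worked, so its highest 5% of scores was used and no barcode was removed. Chromosomes came from GENCODE M21 and sequences from RefSeq (GRCm38.p6). The scripts were tested on simulated data. Some measured genes are not reported here.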

Additional observations from a re-analysis of the deposited data

Results flagged for a closer look

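A few genes stood higher in members than in another population in one library and lower in the other, each time by the call of at least 2-fold. Against Ptprc-positive barcodes this held for 7 of 8902 genes, of which 4 are list genes. Flt1, an endothelial receptor gene, had a log2 ratio of -1.70 in library 1 and 1.48 in library 2. Cd79a, a B cell receptor subunit gene, had -3.78 and 2.69, and Mzb1, a gene of antibody-secreting cells, had -1.67 and 2.48. Ccl22, a chemokine gene of dendritic cells, had 1.38 and -3.87. Against collagen-rich barcodes it held for 4 of 5431 genes, of which 2 are list genes, both of contractile cells: Tagln had -1.46 and 1.25, and Acta2 had -1.47 and 1.20. The difference between the libraries was not tested for any of these. Library 1 has 31 members, and the members without Cdkn2a (5 and 30) hold the plasma cell, endothelial and MHC class II genes among them.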

How the results depend on the processing

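Every limit of the rule was moved in turn. The share of members was 0.583% and 5.50%. With a collagen limit of 0.1% it was 0.188% and 2.25%, and in library 2 it was 4.70% with at least 30000 UMIs and 6.53% with Ptprc under 200 CPM. Xist in the members of library 1, 26.5 CPM, was 41.8 with at least 15000 UMIs, 20.6 with at least 30000, 7.52 with Ptprc under 50 CPM, 58.1 with Ptprc under 200 CPM, 90.5 with the 0.1% collagen limit and 1.15 in the core. Counts of called genes moved with the UMIs required of a gene. With at least 20 UMIs, 278 rather than 180 genes were higher in library 1, 838 rather than 510 were lower than in collagen-rich barcodes, and 1575 rather than 977 were higher than in Ptprc-positive barcodes. With at least 500 UMIs the counts were 64 higher in library 1, 81 rather than 155 higher in library 2, 113 rather than 392 higher and 142 lower than in collagen-rich barcodes, and 331 higher and 949 rather than 1827 lower than in Ptprc-positive barcodes. The 0.1% collagen limit left 40 genes higher than in collagen-rich and 582 higher than in Ptprc-positive barcodes. A resolution of 0.25 gave 3 clusters rather than 6. The direction of single genes was not compared between these settings. Which of a pair of counts was larger did change. At 500 UMIs more genes were higher in library 2 than in library 1. Under the other scalings (468 and 426, 469 and 434) more genes were higher than lower against collagen-rich barcodes. The cause of these moves was not tested. No paired analysis was possible because each group has 1 library and no test was run.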
